A study of Mus musculus with 7 samples.

Results

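The cathepsin genes *Ctsa*, *Ctsb*, *Ctsc*, *Ctsd*, *Ctsh*, *Ctsk*, *Ctsl*, *Ctss* and *Ctsz*, together with *Cst3*, which encodes the cathepsin inhibitor cystatin C, were examined for chromatin accessibility in airway macrophages (AMs). All peaks that carried one of these 10 gene symbols in the baseline peak table were taken, which gave 116 of 90376 peaks. The 2 groups were AMs of *Scnn1b*-Tg mice (n = 4 libraries) and of wild-type (WT) littermates (n = 3 libraries), all female, 6 weeks old and on the C57BL/6 background. AMs were sorted by flow cytometry as CD45+, Siglec-F+ and CD11c+ cells and were assayed fresh and without treatment. The *Scnn1b* transgene overexpresses a subunit of the epithelial sodium channel from the CCSP promoter, which is active in airway epithelial cells, and these mice serve as a model of muco-obstructive lung disease.

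ATAC-seq uses a transposase that cuts and tags open DNA, so that the number of reads in a peak measures how accessible the DNA is there. It does not measure how much of a gene's RNA or protein is made. The 7 libraries held between 20971521 and 56121809 reads in peaks in *Scnn1b*-Tg and between 28248016 and 39162909 in WT. Start-site peaks were found for 10 of 10 airway macrophage markers, *Siglecf* and *Itgax* included. Among markers of other cells, a start-site peak was found for 3 of 6 neutrophil markers, 4 of 4 of monocytes and interstitial macrophages, 3 of 3 of dendritic cells, 3 of 4 of epithelial cells and the B cell gene *Ms4a1*. Per kb, *S100a8* of neutrophils (percentile 72.4 of start-site peaks) was above *Siglecf* (57.7) and below *Itgax* (82.5), and *Scgb1a1* of airway epithelium was at 52.0. No start-site peak was found for the neutrophil genes *Ly6g*, *Mpo* and *Elane*, for any of 3 eosinophil markers, for the T cell gene *Cd3e* or for the alveolar epithelial gene *Sftpc*. The normalized sums of neutrophil marker peaks were 1332 to 1600 in *Scnn1b*-Tg and 1360 to 1680 in WT. No marker peak of any list passed the test between the genotypes. Only 1 of all 90376 peaks did, so this does not show that the cell mix was equal. *Scnn1b*-Tg replicate 4 and WT replicate 3 stood apart from the other 5 libraries on the first principal component of all peaks, which held 43.6% of the variance, with scores of 101 and 109.6 against -90.4 to 8.10.

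Cathepsins are proteases that digest proteins in lysosomes and, when released, outside the cell. Most are made as inactive precursors that travel to the lysosome by way of mannose 6-phosphate receptors and are activated there by cleavage. Macrophages are rich in them, and cystatins outside the cell hold released cysteine cathepsins in check. Many lysosomal genes carry an E-box of the CLEAR type (coordinated lysosomal expression and regulation) near their start, which is bound by TFEB and related factors.

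Sequences are given for the stretches on which the description turns, first 4 promoters with CLEAR-type, PU.1-type, IRF or STAT strings. They come from the RefSeq promoter table (build GRCm38.p6, the build of the mm10 coordinates), run 5′ to 3′ on the strand of the gene, and count positions from the start at +1. The table had entries for 8 of the 10 genes. *Ctsb* and *Ctsh* had no entry. Capitals mark the E-box and, where present, the 2 further bases of its CLEAR-type form in *Ctsa* and *Ctsd*, the STAT string and the PU.1-type string in *Ctsc*, and the IRF string and the PU.1-type string in *Ctss*.
*Ctsa*, chr2:164833713-164833786, plus strand, -60 to 14: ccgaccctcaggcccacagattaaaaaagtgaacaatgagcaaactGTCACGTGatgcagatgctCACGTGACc
*Ctsd*, chr7:142387908-142388077, minus strand, -250 to -81: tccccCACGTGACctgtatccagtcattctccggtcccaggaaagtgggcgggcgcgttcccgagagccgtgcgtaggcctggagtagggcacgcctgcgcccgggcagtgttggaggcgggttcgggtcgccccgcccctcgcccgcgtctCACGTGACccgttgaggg
*Ctsc*, chr7:88277835-88277954, plus strand, -250 to -131: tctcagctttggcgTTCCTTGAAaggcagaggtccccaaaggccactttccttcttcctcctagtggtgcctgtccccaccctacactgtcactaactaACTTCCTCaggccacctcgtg
*Ctss*, chr3:95526726-95526795, plus strand, -60 to 10: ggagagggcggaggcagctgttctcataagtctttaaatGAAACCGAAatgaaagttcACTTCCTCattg

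Strings were searched on both strands, as GTCACGTG for the CLEAR-type E-box, CACGTG for any E-box, GAGGAAGT for the PU.1-type ETS string, GAAANNGAA for IRF, TTCNNNGAA for STAT, TTGCNNAA for C/EBP, GGGANTTCC for NF-kB and TGACGTCA for CRE. Every CLEAR-type match is also an E-box match. In the RefSeq promoters of 300 bases, the CLEAR-type E-box occurred at -14 and 6 in *Ctsa* and at -245 and -98 in *Ctsd*, so each of these promoters held 2 copies. It occurred in 2.25% of all 32851 promoters. *Ctsl* held an E-box without the added bases at -236, a string found in 7.15% of all promoters. The PU.1-type string stood at -151 in *Ctsc* and at -2, across the start, in *Ctss*, against 3.20% of all promoters. C/EBP strings stood at -76 and 25 in *Ctsk* and at -114 in *Ctsl*, against 10.8% of all promoters. The STAT string stood at -236 in *Ctsc*, against 8.30% of all promoters. The IRF string stood at -21 in *Ctss*, against 8.56%. A match describes the letters of the window and does not show that a factor binds there.

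In the central 300 bases of the peaks, the E-box occurred in 10 of 116 peaks of the cathepsin and cystatin C genes (8.62%) and in 5.68% of all peaks. The CLEAR-type form was in 3 of 116 (2.59%), those at the *Ctsa* and *Ctsd* starts and 1 peak inside *Ctsh* annotated to a 3′ UTR, and in 1.09% of all peaks. The C/EBP string was in 26 of 116 (22.4%, all peaks 16.6%), the AP-1 string, TGANTCA, in 21 (18.1%, all peaks 12.4%), the PU.1-type string in 13 (11.2%, all peaks 8.70%) and the NF-kB string in 4 (3.45%, all peaks 1.63%). The STAT string was in 16 (13.8%, all peaks 9.68%) and the IRF string in 15 (12.9%, all peaks 10.3%). No peak of these genes held the CRE string, which was in 0.672% of all peaks. The median GC content of these windows was 46.2% for these genes and 48.3% for all peaks. The peaks of these genes were more often distal intergenic than all peaks (50.9% against 26.8%). Start-site peaks of 13629 genes held the AP-1 string in 5.02% and the C/EBP string in 8.18%. The shares above were not matched for the class of peak, so they do not show a trait of these genes.

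The 10 genes differed greatly in how many peaks they had. *Ctsc*, which encodes dipeptidyl peptidase I, an activator of granule serine proteases, had 44 peaks over 304 kb. *Ctsh* had 15, *Ctsd* 13, *Ctsb* 12, *Ctsl* 10, *Ctss* 9, *Ctsk* and *Cst3* 4 each, *Ctsz* 3 and *Ctsa* 2. A peak bears a gene's symbol because that gene's start is nearest, which does not show that it acts on the gene. Of the 116 peaks, 66 lay between genes, 36 lay inside their gene or at its start and 14 lay inside another gene, among them *Grm5* for *Ctsc*, *Rasgrf1* for *Ctsh*, *Fdft1* for *Ctsb*, *Pltp* for *Ctsa* and *Arnt* for *Ctsk*. By the deposited annotation 50.9% were distal intergenic and 20.7% promoter peaks, against 26.8% and 31.1% of all peaks. Distances are those of the deposited table, measured to the nearest transcript start, which can be a start inside the gene.

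Each of the 10 genes had a peak across an annotated start, and its height was compared between genes per kb of peak. The order in *Scnn1b*-Tg was *Ctsc* (2512 ± 329 normalized reads per kb, SD, n = 4), *Ctsz* (1589 ± 195), *Cst3* (1562 ± 30.3), *Ctsd* (1358 ± 212), *Ctsl* (1237 ± 112), *Ctsb* (1001 ± 91.2), *Ctsh* (967 ± 101), *Ctsk* (912 ± 115), *Ctsa* (906 ± 94.0) and *Ctss* (756 ± 144). In WT, *Ctsc* (2481 ± 223, SD, n = 3) again stood above all others and *Ctss* (875 ± 174) was lowest. *Ctsc* was at percentile 98.4 and *Ctss* at percentile 63.8 of the start-site peaks of 13629 genes. In *Scnn1b*-Tg, neighbours in this order differed by less than the larger of their SDs from *Ctsz* down to *Ctsl* and again from *Ctsb* down to *Ctsa*. Transposase preference and peak width also enter such levels.

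None of the 116 peaks passed an adjusted p of 0.05 between *Scnn1b*-Tg and WT (limma with Benjamini-Hochberg adjustment over all peaks, smallest adjusted p 1.00). Over all 90376 peaks, 1 passed (percent called 0.00111). With so few calls over the whole table, 0 calls among these peaks does not set them apart. Of the 116 peaks, 48 had higher and 68 lower estimates in *Scnn1b*-Tg (41.4% higher), against 47.8% higher over all peaks. Their median log2 fold change was -0.03, against -0.01 for all peaks. Log2 fold changes are on the log2(value + 1) scale and range from -0.63 to 0.60 among these peaks.

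At an unadjusted p under 0.05, 0 of 116 peaks were higher in *Scnn1b*-Tg (all peaks 1.49%) and 1 was lower (all peaks 0.517%). The 4 *Scnn1b*-Tg values lay above all 3 WT values in 2 peaks (all peaks 1.92%) and below them in 1 peak (all peaks 1.31%). No count is far from the share over all peaks. The median SD within groups was 0.30 on the log2 scale for these peaks and 0.31 for all peaks.

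**Figure D1:**
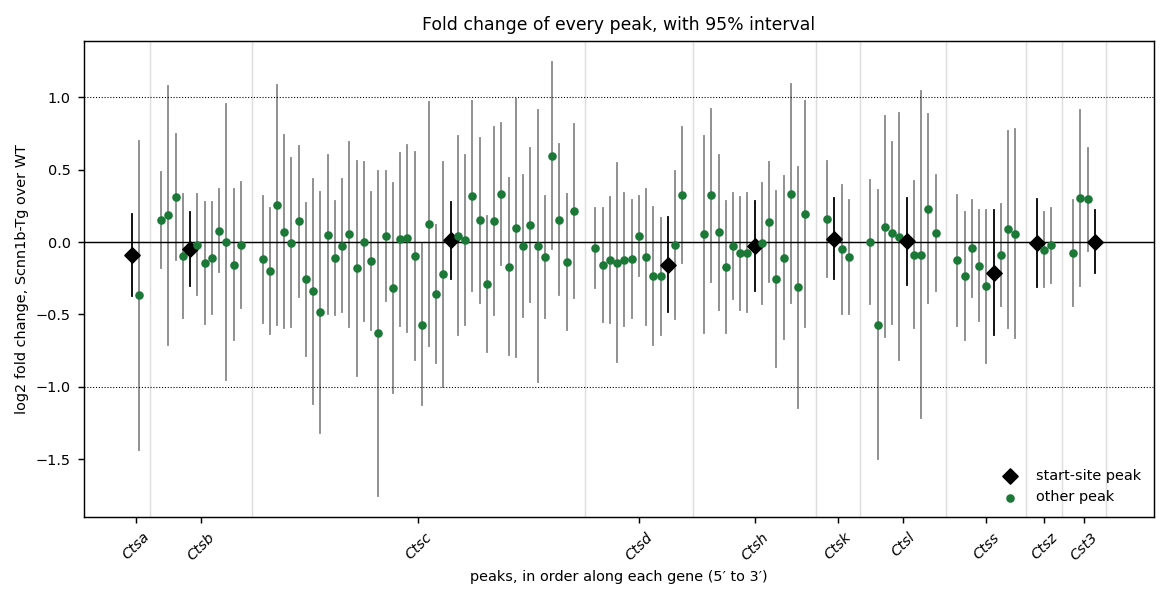
Log2 fold change of *Scnn1b*-Tg over WT (y axis) for each of the 116 peaks, ordered along each gene from 5′ to 3′ (x axis), with lines for the 95% interval from limma, diamonds for start-site peaks, circles for other peaks and dotted lines at 1 and -1. The interval of 115 of 116 peaks holds 0, and no estimate lies beyond the dotted lines.

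The 95% intervals give, for each peak taken alone, how large a difference the fit allowed. They do not hold for the 116 peaks together. The fit also had no term for what the libraries that stood apart shared. A differentially accessible region (DAR) was defined by a log2 fold change beyond 1 in size besides the adjusted p, and all 10 start-site peaks had a 95% interval inside -1 to 1. Taken over the 10, the intervals reached from -0.64 to 0.31 on the log2 scale. Over all 116 peaks, 103 had intervals inside that range. The 13 others had mean normalized counts of 14.1 to 207, with 11 of them under the median of all peaks (121), and for these 13 a difference of 2-fold was not excluded.

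The lysosomal cysteine proteases with broad roles in protein breakdown, *Ctsb* and *Ctsl*, had start-site peaks of nearly equal height in both genotypes. *Ctsb* (chr14:63122212-63124517, mm10) had 2354, 2349, 2016 and 2517 normalized reads in *Scnn1b*-Tg and 2233, 2355 and 2561 in WT. *Ctsl* (chr13:64369819-64370943) had 1245, 1553, 1371 and 1398 in *Scnn1b*-Tg and 1269, 1619 and 1287 in WT. The groups overlapped in both genes. The log2 fold change was -0.05 ± 0.12 (SE, 95% interval -0.30 to 0.21) for *Ctsb* and 0.01 ± 0.14 (-0.30 to 0.31) for *Ctsl*. The *Ctsl* peak of smallest p, at -14197 bases, held only 20.7, 7.25, 11.1 and 12.3 normalized reads in *Scnn1b*-Tg and 17.9, 20.2 and 17.1 in WT, and these overlapped (log2 fold change -0.57 ± 0.42).

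One *Ctsb* peak between genes, -10194 bases from the start (chr14:63111523-63112268), separated the groups. It had 81.6, 78.0, 83.8 and 72.5 normalized reads in *Scnn1b*-Tg and 67.2, 59.3 and 63.9 in WT. The lowest *Scnn1b*-Tg library was above the highest WT library, and the interval of the difference held 0 (log2 fold change 0.31 ± 0.20, 95% interval -0.12 to 0.74, unadjusted p from limma 0.145).

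*Ctsh*, an aminopeptidase, and *Ctsz*, a carboxypeptidase of the same family, also had start-site peaks of nearly equal height in both genotypes. The *Ctsh* start-site peak (chr9:90053950-90055329) had 1219, 1408, 1216 and 1495 normalized reads in *Scnn1b*-Tg and 1171, 1366 and 1554 in WT. The *Ctsz* start-site peak (chr2:174438695-174440255) had 2354, 2485, 2186 and 2897 in *Scnn1b*-Tg and 2228, 2293 and 2964 in WT. WT values enclosed all or nearly all *Scnn1b*-Tg values in both genes, with log2 fold changes of -0.03 ± 0.14 and -0.0042 ± 0.14. The 3 *Ctsz* peaks covered 4.20 kb in and around the 5′ part of the gene, and the one of smallest p, 577 bases past a start, had a log2 fold change of -0.05 ± 0.12. The *Ctsh* peak of smallest p lay in *Rasgrf1*, -47193 bases from the start, with 90.1, 71.6, 128 and 63.9 normalized reads in *Scnn1b*-Tg and 77.4, 77.1 and 52.5 in WT. These overlapped.

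*Ctsk*, a collagen-degrading protease best known from osteoclasts, and *Ctss*, which trims the invariant chain of MHC class II in antigen-presenting cells, are neighbours on chromosome 3. The *Ctsk* start-site peak (chr3:95497721-95500393) had 2869, 2309, 2156 and 2419 normalized reads in *Scnn1b*-Tg and 2618, 2183 and 2375 in WT (log2 fold change 0.02 ± 0.13). The *Ctss* start-site peak (chr3:95526516-95527062), which holds the IRF and PU.1-type strings shown above, had 515, 407, 323 and 409 in *Scnn1b*-Tg and 580, 465 and 392 in WT. *Ctss* had the lowest estimate of the start-site peaks, and its groups overlapped (-0.21 ± 0.20, 95% interval -0.64 to 0.22, unadjusted p from limma 0.302).

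*Ctss* had 7 of 9 peaks with lower and 2 with higher estimates in *Scnn1b*-Tg (all peaks 47.8% higher). *Scnn1b*-Tg replicate 3 was the lowest library in 6 of the 9 (all peaks 15.2%), and WT replicate 1 the highest in 5 (all peaks 13.3%). The highest *Ctss* peak, 2717 bases past a start inside the gene (chr3:95529503-95530319), had 803, 900, 658 and 683 normalized reads in *Scnn1b*-Tg and 923, 787 and 715 in WT. The one of smallest p, at -2348 bases, had 125, 113, 66.4 and 97.6 in *Scnn1b*-Tg and 129, 133 and 104 in WT. In each peak the values overlapped. For *Ctsk* the peak of smallest p lay in *Arnt* and had 228, 206, 166 and 168 in *Scnn1b*-Tg and 160, 179 and 172 in WT. These overlapped as well (0.16 ± 0.18).

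*Ctsd*, the main aspartic protease of lysosomes, and *Ctsa*, a serine carboxypeptidase that also shields lysosomal neuraminidase and galactosidase from breakdown, share the doubled CLEAR-type E-box printed above. The *Ctsd* start-site peak (chr7:142387326-142388255) had 1115, 1412, 1072 and 1453 normalized reads in *Scnn1b*-Tg and 1284, 1557 and 1361 in WT. The *Ctsa* start-site peak (chr2:164832714-164835125), which also covers the start of *Neurl2*, had 1967, 2311, 2024 and 2440 in *Scnn1b*-Tg and 2021, 2450 and 2511 in WT. Both averaged lower in *Scnn1b*-Tg and both overlapped WT. The log2 fold change was -0.16 ± 0.15 for *Ctsd* (95% interval -0.49 to 0.17) and -0.09 ± 0.13 for *Ctsa* (-0.37 to 0.19). The other *Ctsa* peak, in *Pltp*, was low and spread widely, with 17.0, 52.6, 11.1 and 29.5 in *Scnn1b*-Tg and 32.3, 45.1 and 19.4 in WT.

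By normalized reads in the whole peak, *Ctsd* differed from the other genes in that its highest peak lay far upstream, at -15517 bases (chr7:142403555-142404940). It had 2296, 2031, 1800 and 2348 in *Scnn1b*-Tg and 2202, 2022 and 2283 in WT. This peak was 1386 bases wide. Per kb it had 1529 in *Scnn1b*-Tg and 1565 in WT, below the *Ctsd* peaks at -4952 bases (1948 and 1888) and -9891 bases (1917 and 2092). Per kb, *Ctsb*, *Ctss* and *Ctsz* also had a peak above the one at their start. The *Ctsd* start-site peak held 12.96% of the normalized reads in the 13 *Ctsd* peaks. The peak of smallest p (chr7:142384369-142384682) lay inside *Ctsd*, and had 215, 242, 149 and 262 in *Scnn1b*-Tg and 156, 167 and 186 in WT. *Scnn1b*-Tg replicate 3 was the lowest of all 7 libraries there, while the other 3 *Scnn1b*-Tg libraries were above every WT library (log2 fold change 0.33 ± 0.21, 95% interval -0.14 to 0.79). With 1 library left out the log2 fold change ranged from 0.23 (without *Scnn1b*-Tg replicate 4) to 0.50 (without replicate 3), and the lowest adjusted p over all alternatives, limma included, was 0.999. The estimate was lower in *Scnn1b*-Tg in 11 of 13 *Ctsd* peaks and higher in 2 (all peaks 47.8% higher). *Scnn1b*-Tg replicate 3 was the lowest library in 10 of the 13. The same library was lowest in 32 of the 116 peaks and in 15.2% of all peaks. The study names *Ctsd* from a joint analysis of accessibility changes called in these samples and of RNA, so it is no independent choice.

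**Figure D2:**
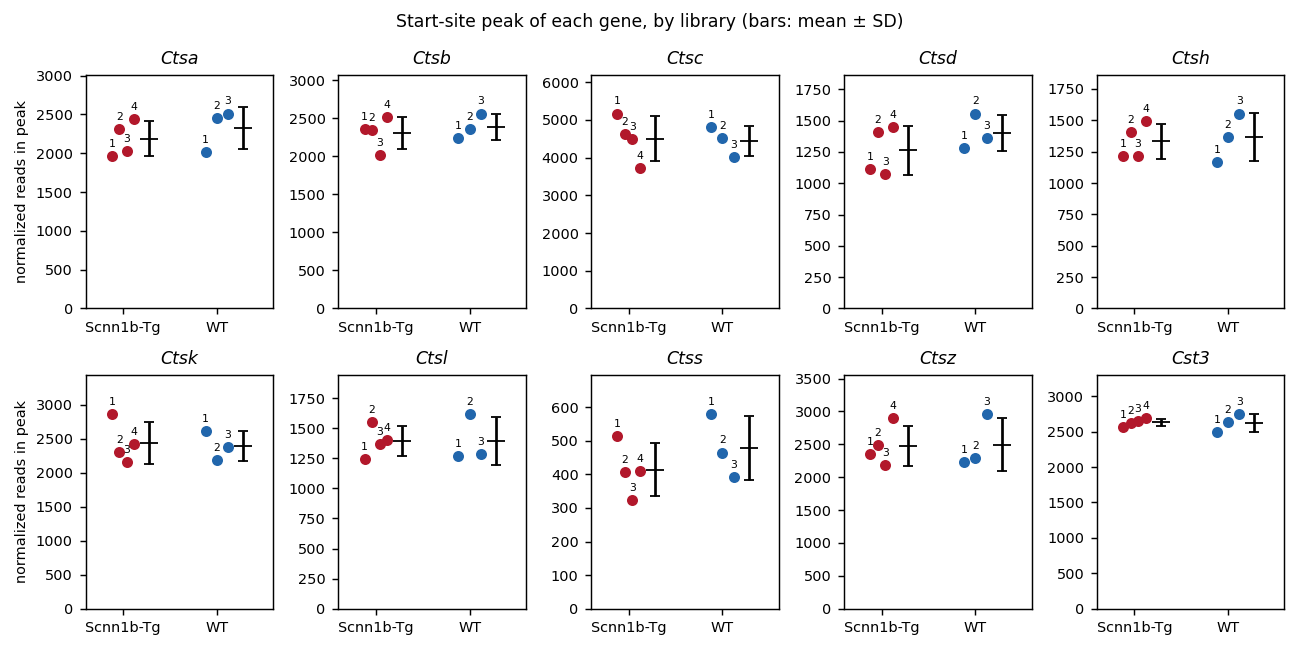
Normalized reads in the start-site peak of each gene (y axes, from 0) for each library, numbered, with 4 *Scnn1b*-Tg libraries in red on the left and 3 WT libraries in blue on the right of each panel, and mean ± SD as bars. The groups overlap in all 10 panels, as in *Cst3*, where 2566 to 2689 in *Scnn1b*-Tg lie within 2496 to 2751 in WT.

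*Cst3* encodes cystatin C, a secreted inhibitor of cysteine cathepsins, and had the steadiest start-site peak. It had 2566, 2621, 2644 and 2689 normalized reads in *Scnn1b*-Tg and 2496, 2629 and 2751 in WT (chr2:148874640-148876323, log2 fold change 0.0035 ± 0.10, 95% interval -0.22 to 0.22). Its peak of smallest p lay between genes, -12958 bases from the start (chr2:148888650-148889455), with 329, 303, 391 and 369 in *Scnn1b*-Tg and 262, 296 and 288 in WT. All 4 *Scnn1b*-Tg libraries were above all 3 WT libraries, and the interval of the difference still held 0 (0.30 ± 0.16, 95% interval -0.06 to 0.65, unadjusted p from limma 0.0937).

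*Ctsc* had the strongest start-site peak of the 10 genes (chr7:88276952-88278745). It had 5171, 4624, 4493 and 3737 normalized reads in *Scnn1b*-Tg and 4812, 4520 and 4020 in WT, which overlapped (log2 fold change 0.01 ± 0.12, 95% interval -0.25 to 0.28). The lowest value of each genotype came from the libraries that stood apart, *Scnn1b*-Tg replicate 4 and WT replicate 3. Upstream, 21 peaks between *Grm5* and the *Ctsc* start together held 7870, 6034, 5671 and 4157 normalized reads in *Scnn1b*-Tg and 7518, 6496 and 4502 in WT. The spread within each genotype was thus far wider than the gap between the means of 5933 ± 1526 in *Scnn1b*-Tg and 6172 ± 1534 in WT (SD). Without the 2 libraries that stood apart the means were 6525 in *Scnn1b*-Tg and 7007 in WT. The 22 peaks with higher and the 22 with lower estimates in *Scnn1b*-Tg were equal in number.

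The libraries that stood apart were both below the other 5 libraries in 21 of 44 *Ctsc* peaks (47.7%) and both above them in 0. The highest peak of the upstream stretch, at -70099 bases, had 1629, 1268, 1254 and 946 normalized reads in *Scnn1b*-Tg and 1505, 1479 and 929 in WT. Both were also below the others in 9 of 15 *Ctsh* peaks and 4 of 10 *Ctsl* peaks. At *Ctsd* both were above the other 5 in 7 of 13 peaks (53.8%) and below them in 0, and they were above in 2 of 3 *Ctsz* peaks. Over the 116 peaks both were below in 31.0% and above in 12.9%. The *Ctsd* peak at -8583 bases had 340, 418, 340 and 839 in *Scnn1b*-Tg and 389, 433 and 722 in WT. Over all peaks both libraries were below the others in 17.99% and above them in 19.03%. These 2 peaks were picked as examples after their values were seen. Each genotype holds 1 of these libraries. The labels give numbers 13, 14 and 19, in batches 1, 2 and 4, to samples of both genotypes, and number 15, in batch 3, to *Scnn1b*-Tg alone, but the columns carry neither, so which sample each library is cannot be told. What sets the libraries apart was not tested.

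**Figure D3:**
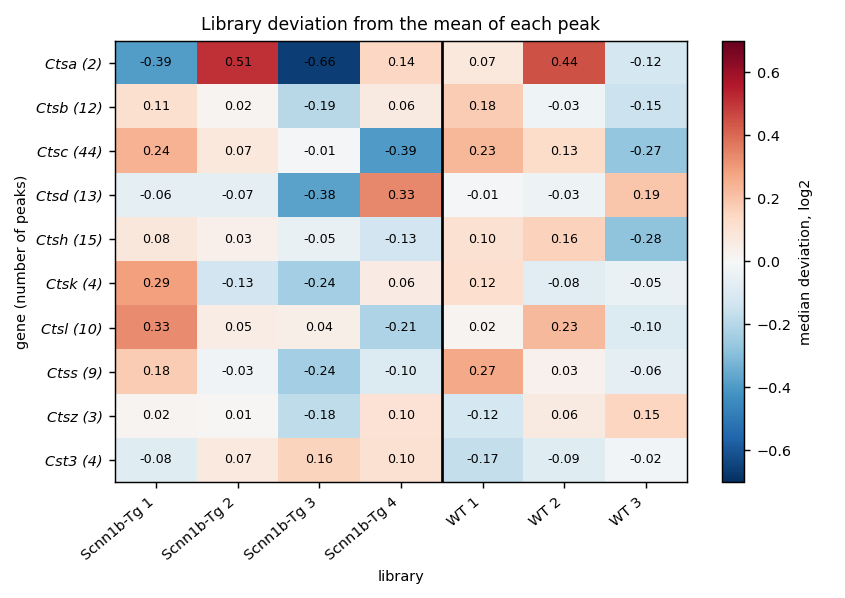
Median deviation of each library (x axis, 4 *Scnn1b*-Tg left of the line and 3 WT right of it) from the mean of each peak over the 7 libraries, in log2 units, for the peaks of each gene (y axis, number of peaks in brackets). At *Ctsc*, *Scnn1b*-Tg replicate 4 (-0.39) and WT replicate 3 (-0.27) are lowest, and at *Ctsd* the same libraries are highest (0.33 and 0.19).

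**Figure D4:**
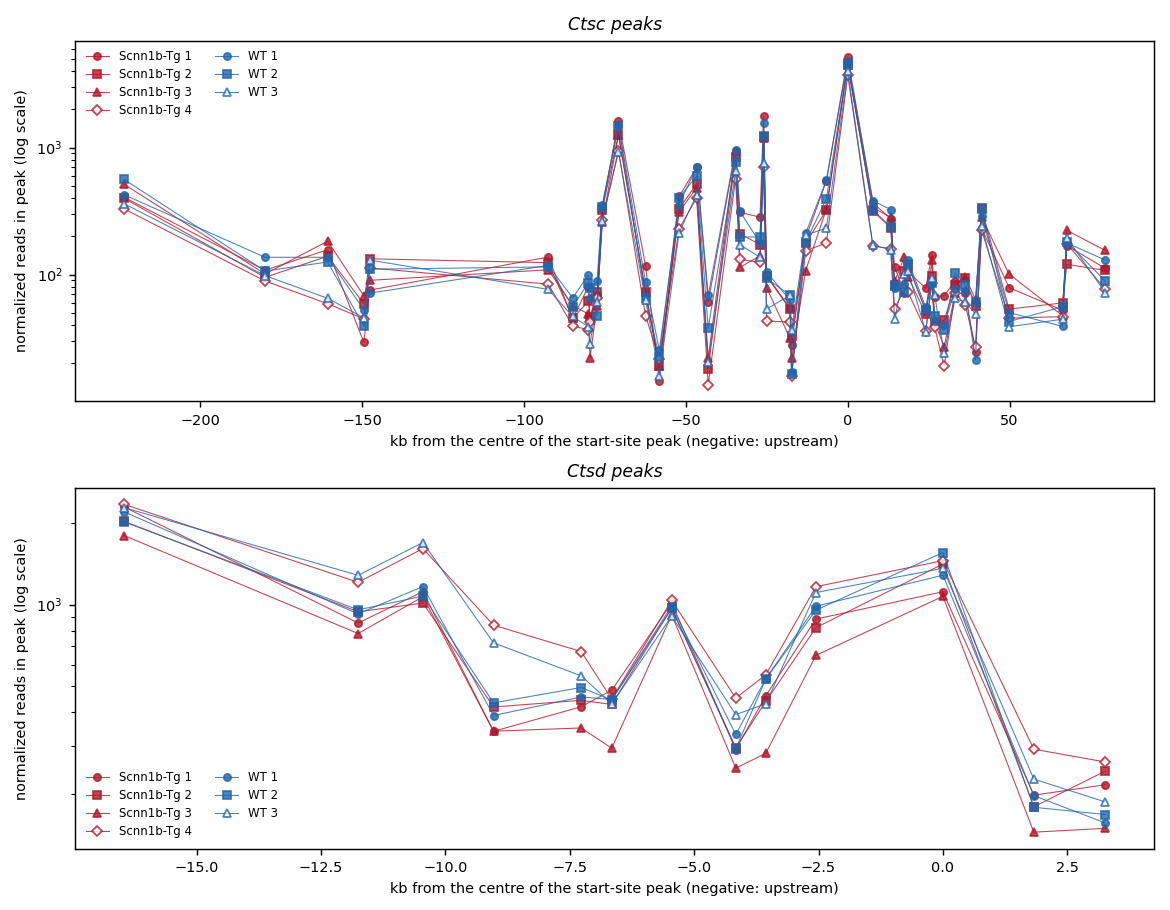
Normalized reads in each *Ctsc* peak (upper panel) and *Ctsd* peak (lower panel) on a log scale (y axes) against the distance in kb from the centre of the start-site peak (x axes, negative upstream), 1 line per library, with *Scnn1b*-Tg in red, WT in blue and open symbols for the libraries that stood apart. Red and blue lines run together along both genes, and the open symbols lie low over many *Ctsc* peaks and high over many *Ctsd* peaks.

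Estimates were within 0.5 of 0 in 112 of the 116 peaks. The others were the *Ctsl* peak at -14197 bases and 3 *Ctsc* peaks, of which that at -43201 bases had 60.9, 18.1, 22.1 and 13.5 normalized reads in *Scnn1b*-Tg and 68.9, 37.9 and 20.6 in WT. At -17792 bases (chr7:88259636-88260293) *Scnn1b*-Tg had 54.8, 53.5, 31.6 and 42.4 normalized reads and WT had 62.9, 68.8 and 68.5. It was the only one of the 116 peaks with an unadjusted p under 0.05 (log2 fold change -0.57 ± 0.25, 95% interval -1.13 to -0.02, unadjusted p from limma 0.0446, adjusted p 1.00). That p was above 0.05 with edgeR and with DESeq2. It was also above 0.05 without any 1 of WT replicates 1, 2 and 3 or *Scnn1b*-Tg replicates 3 and 4. Log2 fold changes in all of these fits were -0.61 to -0.41. The p was above 0.05 as well in the fit without both libraries that stood apart. At 30561 bases *Scnn1b*-Tg had 79.1, 53.5, 101 and 45.4 and WT had 50.2, 42.7 and 38.8, the highest estimate of the 116 (0.60 ± 0.29, 95% interval -0.05 to 1.24), and the groups overlapped. The peaks at -43201 and 30561 bases were chosen after their values were seen.

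The central 300 bases of the *Ctsc* and *Cst3* peaks whose groups did not overlap are shown on the plus strand of GRCm38. Such peaks were no more frequent here than over the whole table. Higher in *Scnn1b*-Tg were 2 of 116 (all peaks 1.92%), and lower was 1 of 116 (all peaks 1.31%). The strings marked in them describe letters only. Capitals mark a PU.1-type and a STAT string in the *Ctsc* peak, and an AP-1 and an IRF string in the *Cst3* peak.
*Ctsc* at -17792, chr7:88259815-88260114: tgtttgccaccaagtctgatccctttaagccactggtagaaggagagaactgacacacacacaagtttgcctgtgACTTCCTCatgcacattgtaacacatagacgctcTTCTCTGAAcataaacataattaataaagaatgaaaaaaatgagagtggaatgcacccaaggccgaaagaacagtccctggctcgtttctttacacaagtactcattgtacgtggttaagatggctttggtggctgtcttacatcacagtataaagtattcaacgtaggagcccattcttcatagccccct
*Cst3* at -12958, chr2:148888903-148889202: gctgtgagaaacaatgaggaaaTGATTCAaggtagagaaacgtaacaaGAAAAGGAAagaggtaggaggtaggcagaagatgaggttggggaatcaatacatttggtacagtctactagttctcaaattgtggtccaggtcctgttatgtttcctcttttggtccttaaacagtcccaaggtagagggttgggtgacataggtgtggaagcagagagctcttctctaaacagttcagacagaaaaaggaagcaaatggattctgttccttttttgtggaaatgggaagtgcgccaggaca

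When the normalized reads of all peaks of a gene were added up, no gene of the 10 passed the test, and 0 of 17797 genes did over the whole table (percent called 0). With all libraries the largest difference was at *Ctss*, with sums of 3854, 3518, 2728 and 3191 in *Scnn1b*-Tg and 4190, 3553 and 3199 in WT, and these overlapped (log2 fold change -0.14 ± 0.13, 95% interval -0.43 to 0.15). Without WT replicate 1 the estimate was -0.03 for *Ctss* and -0.19 for *Ctsa*, and without *Scnn1b*-Tg replicate 3 it was -0.05 for *Ctss*. *Ctsc* had sums of 13186 ± 2454 in *Scnn1b*-Tg and 13332 ± 2287 in WT (SD, n = 4 and 3). *Ctsd* had 9934 ± 1759 in *Scnn1b*-Tg and 10561 ± 869 in WT. *Cst3* had 3214 ± 86.8 in *Scnn1b*-Tg and 3146 ± 145 in WT. Estimates of the 10 genes lay between -0.14 and 0.03, and every 95% interval held 0.

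The other cathepsin, cystatin and processing genes gave 35 peaks in 9 of 15 genes. Of these, 0 passed the test (all peaks 0.00111%). At an unadjusted p under 0.05, 0 were higher (all peaks 1.49%) and 0 lower (all peaks 0.517%). With such shares, 0 among 35 peaks does not set them apart. Their median log2 fold change was 0.02. *Lgmn*, the asparagine endopeptidase that cleaves cathepsin precursors, had 1127, 1419, 1243 and 1389 normalized reads in its start-site peak in *Scnn1b*-Tg and 1152, 1288 and 1412 in WT. *Cstb*, an inhibitor of cathepsins within the cell, had 1228, 1488, 1387 and 1634.7 in *Scnn1b*-Tg and 1271, 1284 and 1446 in WT. Both overlapped between the genotypes (0.01 ± 0.14 and 0.10 ± 0.13). *Cst7*, which encodes cystatin F, had a faint start-site peak of 11.0 to 21.5 in *Scnn1b*-Tg and 5.93 to 27.4 in WT.

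The genes that sort lysosomal enzymes by mannose 6-phosphate or other receptors, or serve as their activators and membrane partners, gave 97 peaks in 11 of 11 genes. Of these 0 passed the test (all peaks 0.00111%). At an unadjusted p under 0.05, 1 was higher (all peaks 1.49%) and 0 lower (all peaks 0.517%). The median log2 fold change was -0.01. In 4 peaks, which are named after their values were seen, all *Scnn1b*-Tg libraries were above all WT libraries (all peaks 1.92%), and in 0 were they below (all peaks 1.31%). These lay near *Gm2a*, *Igf2r*, *Scarb2* and *Lamp2*. The *Igf2r* peak (chr17:12782924-12783871), near the gene for the larger mannose 6-phosphate receptor, had 474, 446, 489 and 477 normalized reads in *Scnn1b*-Tg and 422, 372 and 416 in WT (0.23 ± 0.14, unadjusted p from limma 0.144). The *Gm2a* peak, near the gene for the ganglioside activator, held 21.9, 21.8, 22.1 and 23.3 in *Scnn1b*-Tg and 9.35, 20.2 and 4.57 in WT (1.12 ± 0.46, adjusted p from limma 1.00).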

How the data were processed

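Omni-ATAC libraries of sorted AMs, 4 of *Scnn1b*-Tg and 3 of WT mice, were processed by the authors with the ENCODE ATAC-seq pipeline on mm10. DiffBind formed a consensus of peaks seen in several samples, and ChIPseeker added the nearest gene. The deposited signal columns hold reads per peak that the authors scaled by 1 factor per library. Division by the value of 1 read gave whole reads for 100% of values (tolerance 0.001 reads). The table also holds group means, log fold changes and p-values of the authors' own comparison, which were not used. Column names give genotype and a number, but neither sample number nor batch, so replicate numbers are those of the columns, and no batch could be fitted or taken out. No library was a copy of another, since the share of peaks with the same recovered reads did not pass 1.76% in 21 pairwise comparisons. Labels do not say whether each library came from 1 mouse or several, so p-values measure the spread between these libraries.

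All 90376 peaks were fitted with limma 3.58.1 in R 4.3.3 (trended, robust variances) on log2(value + 1), with genotype as the only term, no filter and Benjamini-Hochberg adjustment. Sums per gene were fitted likewise. Alternatives were pseudocounts of 0.5 and 5, a minimum mean of 20, quantile and median-of-ratios scaling, limma without trend, 1 surrogate variable (sva 3.50.0), edgeR 4.0.16 and DESeq2 1.42.0 on the recovered reads, and leaving out libraries. The fit was tested on simulated reads drawn independently for each library. These held no difference shared by libraries, as seen on the first principal component, so the simulation does not cover that feature of the data. Named were, for each gene, the start-site peak, the peak of highest mean, the peak of smallest p and any peak past adjusted p 0.05, and of the other lists the start-site peaks of *Lgmn*, *Cstb* and *Cst7* and any called peak. Genes, lists and tests were chosen with earlier results of these data known. Strings were searched in the central 300 bases of each peak. Of the transcripts behind the 116 peaks, 116 had identical coordinates in GENCODE M21. The sequence of 1 peak and 1 marker gene are not reported here.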

Additional observations from a re-analysis of the deposited data

How the results depend on the processing

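The count of 0 cathepsin and cystatin C peaks and 0 of these genes past adjusted p 0.05 held under every alternative run, also with DESeq2 and with 1 surrogate variable, where the whole table gave 51 and 72 peaks. The edgeR test on the recovered reads gave 1 peak over the whole table. Both pathway lists also stayed at 0. The count of peaks with an unadjusted p under 0.05, which was 1, was 0 with edgeR, 0 with DESeq2, 3 with 1 surrogate variable, 3 without both libraries that stood apart, and 0 to 3 when 1 library was left out. As a share of the 116 peaks this was 0.862%, against 2.01% of all peaks, 2.59% against 4.94% with the surrogate variable, and 2.59% against 2.97% without both libraries. Of 32 log2 fold changes followed (10 genes and 22 peaks), 15 kept their sign under all alternatives. The other 17, none larger than 0.09 in size, changed sign at least once. With 1 library left out, gene sums ranged over -0.0019 to 0.064 for *Cst3*, -0.058 to 0.042 for *Ctsb*, -0.17 to 0.11 for *Ctsc*, -0.12 to 0.020 for *Ctsh*, -0.085 to 0.067 for *Ctsk*, -0.10 to 0.11 for *Ctsl* and -0.10 to 0.051 for *Ctsz*. Start-site peaks ranged over -0.032 to 0.038 for *Cst3*, -0.094 to 0.016 for *Ctsb*, -0.059 to 0.10 for *Ctsc*, -0.13 to 0.071 for *Ctsh*, -0.058 to 0.090 for *Ctsk*, -0.057 to 0.12 for *Ctsl* and -0.081 to 0.13 for *Ctsz*. Of the 15 that kept their sign, 12 moved by over 1.5 times with 1 library left out. The *Ctsa* sum ranged from -0.19 (without WT replicate 1) to -0.039 (WT 3), the *Ctsd* sum from -0.21 (*Scnn1b*-Tg 4) to -0.0086 (*Scnn1b*-Tg 3) and the *Ctss* sum from -0.23 (WT 3) to -0.033 (WT 1). Start-site peaks ranged from -0.19 (WT 1) to -0.031 (WT 3) for *Ctsa*, from -0.23 to -0.079 (WT 2) for *Ctsd* and from -0.35 (WT 3) to -0.065 (WT 1) for *Ctss*. The *Ctsa* peak at 5568 bases ranged from -0.75 (*Scnn1b*-Tg 2) to -0.029 (*Scnn1b*-Tg 3), that of *Ctsh* at -47193 bases from 0.13 to 0.46 and that of *Ctss* at -2348 bases from -0.42 to -0.12. Peaks that changed sign ranged over -0.092 to 0.036 for *Ctsd* at -15517 bases, -0.17 to 0.0092 for *Ctss* at 2717 bases and -0.13 to 0.0082 for *Ctsz* at 577 bases. With quantile scaling the value was 0.0056 for the *Ctsc* sum, 0.0078 for the *Ctsk* sum and 0.016 for the *Ctsz* start-site peak. The *Ctsk* sum was 0.0033 with edgeR and 0.0032 with DESeq2. Without both libraries that stood apart, the value was -0.049 for the *Ctsl* sum, 0.0055 for the *Ctsz* sum, 0.015 for the *Ctsh*, -0.050 for the *Ctsl* and 0.049 for the *Ctsz* start-site peak. The cause of these changes was not tested.

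No paired analysis was possible because the columns carry none of the sample numbers of the labels. The labels share sample numbers and batches between the genotypes, but column order does not show which column is which sample. For 13 of the 116 peaks, the 95% interval allowed a 2-fold difference.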
